A study of Mus musculus with 10 samples.

Results

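RNA-seq counts were examined for 10 mouse genes whose products place, copy or oxidise methyl groups on DNA or form the core of Polycomb repressive complex 2 (PRC2). These genes are Dnmt1, Uhrf1, Dnmt3a, Dnmt3b, Tet1, Tet2, Tet3, Ezh1, Ezh2 and Suz12. They were chosen by symbol, each symbol matched a single Ensembl identifier among the 48795 genes listed, and all 10 were among the 12859 genes that passed the filter on low counts. Their transcripts moved in opposite directions when neural stem and progenitor cells (NSC/NPCs) left the neurosphere state. The maintenance pair Dnmt1 and Uhrf1 and the PRC2 genes Ezh2 and Suz12 fell, whereas Dnmt3a, Tet1, Tet2 and Ezh1 rose.

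In mammals, cytosine methylation at CpG sites is restored after each round of DNA replication by DNMT1, which UHRF1 brings to hemimethylated DNA, and methylation of new sites is laid down by DNMT3A and DNMT3B. TET enzymes oxidise the methyl group, a step that can lead to its loss. PRC2 methylates lysine 27 of histone H3 through EZH2 or EZH1, held together with SUZ12 and EED, and in neural progenitors it is known for keeping developmental genes silent. EZH2 is known as the form that predominates in dividing cells and EZH1 as the form that persists in resting cells.

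The cells came from the subependymal zone (SEZ) of the brain of 10-week-old mice and carried the label WT or p27KO, the latter for mice mutant for Cdkn1b, which encodes the cell cycle inhibitor p27. Proliferating cultures (PRO) were neurospheres, floating aggregates of dividing cells, at 3 days in vitro (DIV) with 20 ng/ml EGF and 10 ng/ml FGF. Differentiating cultures (DIFF) were collected at 2 + 1 DIV: cells of secondary neurospheres were attached to Matrigel with FGF for 2 days and collected 24 h after the mitogens had been replaced by 2% fetal bovine serum. There were 3 libraries of WT PRO, 3 of WT DIFF, 2 of p27KO PRO and 2 of p27KO DIFF. Attachment, serum and loss of mitogens came together in DIFF and cannot be told apart, and the cultures are bulk samples in which fewer cells of a type and less RNA per cell cannot be told apart either.

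Totals ranged from 19190068 to 25291674 counts per library. The titles and genotype field of 4 samples give p27KO while their free-text description names WT cells, and Cdkn1b transcripts were not lost in them, at 102 ± 16.3 CPM (CPM, the gene's count scaled to the library total, SD, n = 2) in PRO against 107 ± 5.12 CPM (n = 3) in WT PRO, and at 139 ± 2.17 CPM (n = 2) in DIFF against 207 ± 1.68 CPM (n = 3). They are therefore called the libraries labelled p27KO. Xist stood at 1.16 to 2.57 CPM in the 6 WT libraries and at 2258 to 3595 CPM in the 4 labelled p27KO, while the summed level of 4 Y-linked genes was 189 to 533 CPM and 0.148 to 0.585 CPM, so that genotype and the sex of the mice cannot be told apart. All 9 neural stem and progenitor markers examined were above 1 CPM, with a summed level of 7507 to 8520 CPM in PRO and 5609 to 7024 CPM in DIFF, and among them Nes went from 1476 to 2012 CPM to 156 to 238 CPM. The 5 microglial markers were below 1 CPM in every library. Of 4 endothelial markers, Cldn5 and Cdh5 were at 0 and Pecam1 was below 1 CPM in every library, while Kdr was at 1.38 to 2.26 CPM in PRO and 4.27 to 10.3 CPM in DIFF. Of 4 pericyte and fibroblast markers, Rgs5 and Dcn were below 1 CPM in every library. Col1a1 overlapped between stages (0.323 to 0.782 CPM in PRO and 0.357 to 1.27 CPM in DIFF). Pdgfrb was at up to 0.295 CPM in PRO and 2.19 to 9.49 CPM in DIFF. The summed level of 5 astrocyte markers was 782 to 1049 CPM in PRO and 2579 to 3477 CPM in DIFF, most of it from Slc1a3. Slc1a3, Gfap and Aqp4 were higher in DIFF without overlap. Aldh1l1 overlapped in WT (83.6 to 196 against 136 to 500 CPM). In libraries labelled p27KO it was higher in DIFF (165 to 204 against 422 to 528 CPM). S100b overlapped in WT (6.04 to 31.5 against 8.87 to 14.5 CPM). It was lower in DIFF in libraries labelled p27KO (9.89 to 19.8 against 4.56 to 9.04 CPM). The sum was also higher in DIFF for 5 oligodendrocyte markers (3.44 to 5.53 against 27.6 to 45.9 CPM, with Mog, Mag and Sox10 below 1 CPM). That of 3 ependymal markers was higher too (13.9 to 20.1 against 84.4 to 103 CPM), through Foxj1, with Tmem212 and Ccdc153 below 1 CPM. The sums of 5 neuronal markers overlapped (11.6 to 35.6 and 32.3 to 89.7 CPM). Among these, Dcx was at 0.279 to 3.18 CPM in PRO and 14.5 to 55.9 CPM in DIFF. Tubb3 was also higher in DIFF without overlap, while Rbfox3, Snap25 and Syt1 overlapped. The part of these markers in the stage changes given here was not tested.

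Of the maintenance genes, Dnmt1 and Uhrf1 fell furthest among the 10 genes. Dnmt1 (chr9:20907209-20959888 in GRCm38, minus strand, ENSMUSG00000004099) was at 414, 429 and 435 CPM in WT PRO and at 72.7, 66.5 and 72.5 CPM in WT DIFF. Uhrf1 (chr17:56303321-56323486, plus strand, ENSMUSG00000001228, with no overlapping annotated gene) was at 199.6, 229 and 243 CPM in WT PRO and at 9.21, 5.39 and 9.25 CPM in WT DIFF. No DIFF library came near a PRO library for either gene, and even the counts of Uhrf1 in WT DIFF, 130 to 234, left it well measured. Dnmt1 fell by 2.61 on the log2 scale, or 6.09-fold (standard error 0.08, adjusted p = 3.9e-08 in the quasi-likelihood test of edgeR). Uhrf1 fell by 4.83, or 28.5-fold (standard error 0.18, adjusted p = 6.1e-08 in the same edgeR test).

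In cells labelled p27KO both genes also fell between stages. Dnmt1 was at 445 and 446 CPM in PRO and at 81.2 and 96.1 CPM in DIFF. Uhrf1 was at 267 and 268 CPM in PRO and at 19.8 and 19.7 CPM in DIFF. The stages were again far apart, and the DIFF libraries of Uhrf1 stood above all those of WT DIFF. The falls were 2.36 for Dnmt1 (standard error 0.10) and 3.78 for Uhrf1 (standard error 0.21) on the log2 scale, the latter 13.8-fold, with edgeR adjusted p-values of 5.5e-07 and 1.5e-06.

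**Figure D1:**
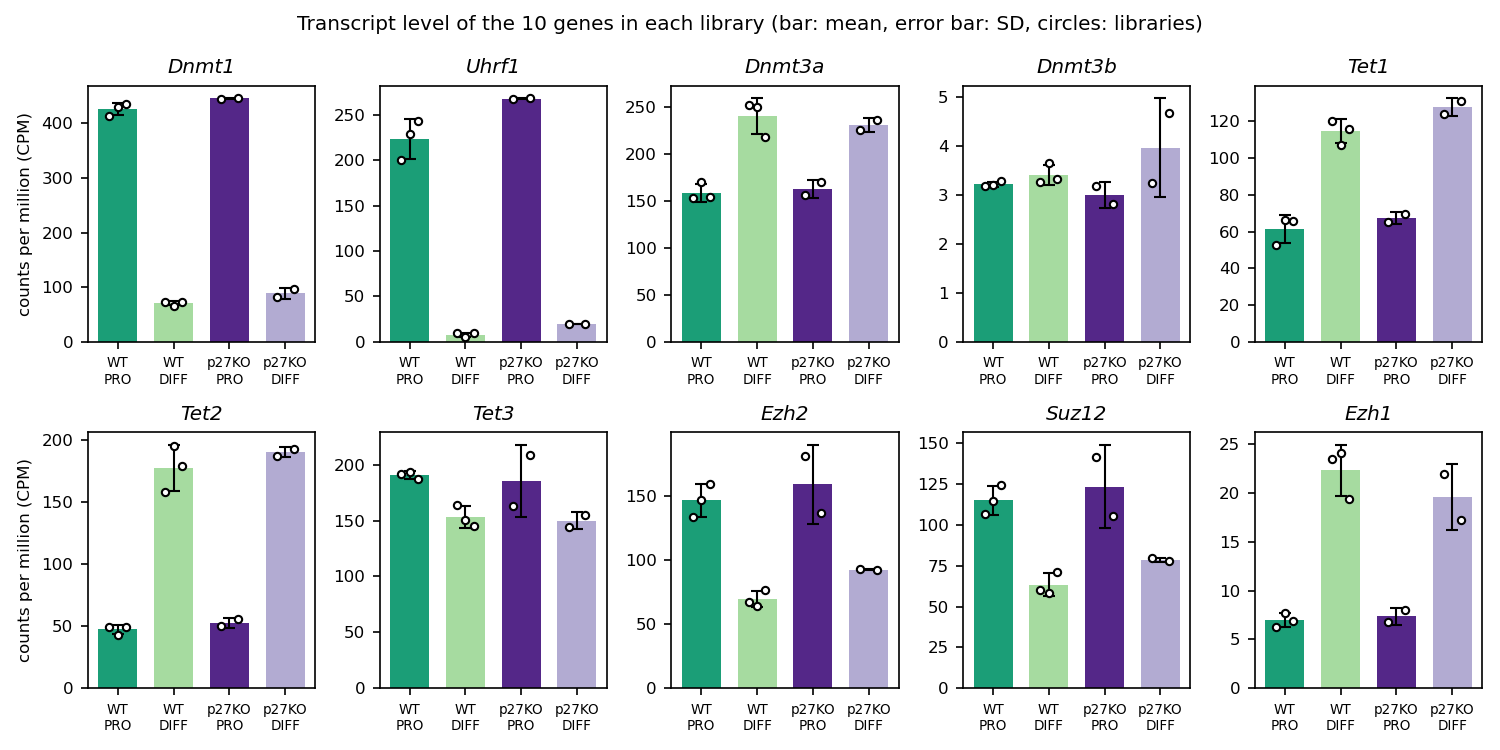
Level of each of the 10 genes in CPM (y axis, from 0, with its own range in each panel) by group (x axis); bars give the mean, error bars the SD and circles the single libraries (3 for each WT group, 2 for each group labelled p27KO). Dnmt1, Uhrf1, Ezh2 and Suz12 stand lower in DIFF than in PRO, Dnmt3a, Tet1, Tet2 and Ezh1 stand higher, Tet3 moves little and Dnmt3b stays between 2.80 and 4.68 CPM.

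Dnmt3a and Dnmt3b, the enzymes that methylate new sites, did not follow Dnmt1. Dnmt3a (chr12:3806007-3914443, plus strand, ENSMUSG00000020661) was at 153, 169.7 and 154 CPM in WT PRO and at 252, 250.4 and 218 CPM in WT DIFF, without overlap. It rose by 0.59 on the log2 scale in WT (standard error 0.09, edgeR adjusted p = 2.2e-04). In libraries labelled p27KO it was at 156 and 169.9 CPM in PRO and at 226 and 236 CPM in DIFF, a rise of 0.48 (standard error 0.11, edgeR adjusted p = 0.0039).

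Dnmt3b (chr2:153649450-153687730, plus strand, ENSMUSG00000027478) was near the filter on low counts, with 57 to 104 counts per library. Its levels were 3.18, 3.19 and 3.27 CPM in WT PRO and 3.26, 3.65 and 3.32 CPM in WT DIFF, which overlapped. They were 3.18 and 2.80 CPM in PRO and 3.25 and 4.68 CPM in DIFF in the libraries labelled p27KO, where a single DIFF library stood apart. The log2 differences between stages were 0.08 in WT (95% interval -0.34 to 0.49, edgeR adjusted p = 0.73) and 0.38 in cells labelled p27KO (95% interval -0.13 to 0.88, edgeR adjusted p = 0.18). At this depth the intervals allow changes in both directions.

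The 3 TET genes split between stages. Tet2 (chr3:133463679-133545139, minus strand, ENSMUSG00000040943) rose most of the 10 genes, from 49.7, 43.3 and 49.5 CPM in WT PRO to 158, 195 and 179 CPM in WT DIFF. Its log2 fold change was 1.89 in WT (standard error 0.11, edgeR adjusted p = 4.2e-07), or 3.71-fold. In cells labelled p27KO it went from 49.9 and 55.6 CPM to 187 and 193 CPM, a log2 fold change of 1.82 (standard error 0.13, edgeR adjusted p = 5.1e-06). Every DIFF library was thus above every PRO library of its genotype.

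Tet1 (chr10:62804570-62908996, minus strand, ENSMUSG00000047146) rose in both genotypes as well. Its levels were 52.9, 66.4 and 65.5 CPM in WT PRO and 120.2, 107 and 116 CPM in WT DIFF, and those labelled p27KO were 64.9 and 69.7 CPM in PRO and 124 and 131 CPM in DIFF. The stages did not overlap, and the log2 fold changes were 0.88 in WT (standard error 0.10, edgeR adjusted p = 2.5e-05) and 0.90 in cells labelled p27KO (standard error 0.12, edgeR adjusted p = 1.5e-04).

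Tet3 (chr6:83362373-83459084, minus strand, ENSMUSG00000034832), the TET gene with the highest level per length in neurospheres, fell slightly. It was at 192, 193 and 187 CPM in WT PRO and at 164, 150.2 and 145 CPM in WT DIFF, a log2 fold change of -0.33 (standard error 0.10, edgeR adjusted p = 0.017). That call rested on WT DIFF replicate 3, without which the edgeR adjusted p was 0.061. The levels labelled p27KO were 163 and 208 CPM in PRO and 145 and 155 CPM in DIFF, so that the neurosphere replicates were further apart than the nearest libraries of the stages. The log2 fold change there was -0.34 (standard error 0.12, edgeR adjusted p = 0.042), and the call was lost in 12 of the 17 other fits. With the replicate number as a block the edgeR adjusted p was 0.05022, and without p27KO PRO replicate 2 the log2 fold change was -0.12 with an adjusted p of 0.34.

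Among the PRC2 genes, the paralogous catalytic subunits changed in opposite directions. Ezh2 (chr6:47530139-47595341, minus strand, ENSMUSG00000029687) was at 133, 146 and 159 CPM in WT PRO and at 67.5, 64.4 and 76.7 CPM in WT DIFF. Ezh1 (chr11:101191115-101226463, minus strand, ENSMUSG00000006920, with no overlapping annotated gene) was at 6.25, 7.70 and 6.92 CPM in WT PRO and at 23.5, 24.1 and 19.3 CPM in WT DIFF. The stages were apart for both genes. Ezh2 fell by 1.09 on the log2 scale, or 2.12-fold (standard error 0.11, edgeR adjusted p = 1.6e-05), and Ezh1 rose by 1.67, or 3.18-fold (standard error 0.15, edgeR adjusted p = 8.6e-06).

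In cells labelled p27KO, Ezh2 was at 181 and 137 CPM in PRO and at 92.6 and 92.0 CPM in DIFF, while Ezh1 was at 6.78 and 7.97 CPM in PRO and at 22.0 and 17.2 CPM in DIFF. The log2 fold changes were -0.80 for Ezh2 (standard error 0.13, edgeR adjusted p = 6.5e-04) and 1.39 for Ezh1 (standard error 0.19, edgeR adjusted p = 1.9e-04). Both PRO libraries stood clear of both DIFF libraries for each gene.

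Suz12 (chr11:79993106-80034123, plus strand, ENSMUSG00000017548), the scaffold of the complex, fell together with Ezh2. It was at 106, 114 and 124 CPM in WT PRO and at 60.0, 58.4 and 71.3 CPM in WT DIFF, a log2 fold change of -0.87 (standard error 0.11, edgeR adjusted p = 9.2e-05). The libraries labelled p27KO were at 142 and 105 CPM in PRO and at 79.6 and 77.8 CPM in DIFF, a log2 fold change of -0.67 (standard error 0.14, edgeR adjusted p = 0.0024). No library of a stage crossed into the other.

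In all, 4 of the 10 genes rose and 5 fell in WT at an adjusted p under 0.05, where 33.5% of all genes tested rose and 33.9% fell. The counts were the same in cells labelled p27KO, where 27.5% of all genes rose and 30.2% fell. Stage changes were thus widespread, and the 9 of 10 called are to be read against 67.4% of all genes tested in WT and 57.7% in cells labelled p27KO. The median log2 fold change of the 10 genes was -0.12 in WT and 0.02 in cells labelled p27KO, beside -0.0019 and -0.029 over all genes tested. Groups did not overlap in CPM for 4 genes higher and 5 lower in WT, against 36.3% and 35.6% of all genes, and for 5 higher and 5 lower in cells labelled p27KO, against 40.0% and 39.8%. Some reads could belong to annotated genes on the other strand that share exons with Dnmt3a, Tet2, Ezh2 and Suz12, since the strand setting of the counting is not given in the sources used here, but these partners (Dnmt3aos, Gm42567, Gm26625 and Gm26563) had at most 1.63 CPM in any library.

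**Figure D2:**
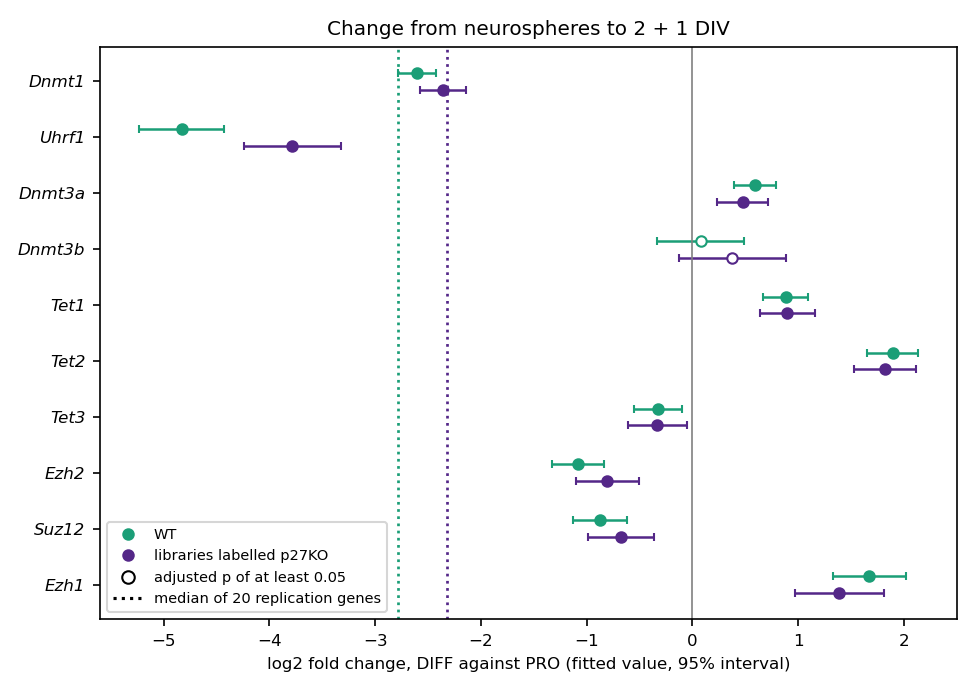
Fitted log2 fold change of DIFF against PRO (x axis) for each gene (y axis) in WT and in libraries labelled p27KO, with 95% intervals; filled points passed an adjusted p of 0.05 and dotted lines mark the median of 20 DNA replication genes in each genotype. Uhrf1 lies at -4.83 in WT and -3.78 in cells labelled p27KO, left of both lines, Dnmt1 lies near them, and Ezh2 and Suz12 lie between the lines and 0.

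The falls were set beside 20 genes of the DNA replication machinery, which are expressed in dividing cells. All 20 fell in WT, with a median log2 fold change of -2.78, and all 20 fell in cells labelled p27KO, with a median of -2.32. Dnmt1 was inside that range: 13 of the 20 fell further in WT and 7 fell less. Uhrf1 was near its end, since its fall exceeded that of 18 of the 20 in both genotypes, and in WT the exceptions were Cdc6 (-5.78) and Cdt1 (-5.11), which load the replicative helicase. Ezh2 and Suz12 fell less than 19 of the 20 in WT. The part of the replication genes' fall in that of the 4 members was not tested.

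Stretches before an annotated transcription start are shown for Dnmt1, Uhrf1, Ezh2 and Suz12, the 4 members whose falls were called in both genotypes under all alternatives. Tet3 was also called lower, but lost its call under some alternatives, and no stretch of it is shown. The stretches are from RefSeq's GRCm38.p6 promoter windows, all 10 genes matched a window, and the 250 bases before each start were searched on both strands for the E2F letters TTTCGCGC, TTTGGCGC and TTTCCCGC, the CCAAT box and the letters TTTGAA of the cell cycle homology region. Capitals mark the matches, also where they lie on the other strand, and the strand given is that of the gene.
Uhrf1, chr17:56304113-56304225, plus strand, E2F letters and 2 CCAAT boxes: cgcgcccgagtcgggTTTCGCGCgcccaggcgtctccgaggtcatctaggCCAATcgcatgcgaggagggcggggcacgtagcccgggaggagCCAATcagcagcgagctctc
Dnmt1, chr9:20952824-20952853, minus strand, E2F letters on the other strand: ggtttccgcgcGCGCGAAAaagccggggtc
Suz12, chr11:79992872-79992923, plus strand, E2F letters and TTTGAA on the other strand: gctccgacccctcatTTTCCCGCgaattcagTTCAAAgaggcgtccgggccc
Ezh2, chr6:47595075-47595135, minus strand, CCAAT boxes on both strands: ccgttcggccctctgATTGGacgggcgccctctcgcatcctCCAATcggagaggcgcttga
The stretches of Uhrf1, Suz12 and Ezh2 lie outside annotated exons, whereas that of Dnmt1 lies in an exon of another Dnmt1 transcript. Those of Uhrf1, Dnmt1 and Ezh2 lie within the span of their own gene, before a start inside it. These starts are at chr17:56304313, chr9:20952623 and chr6:47595030. The stretch of Suz12 lies before the whole gene. E2F letters were found in 3 of the 15 windows of the 10 genes (20.0%), those of Dnmt1, Uhrf1 and Suz12, and in 504 of all 32851 windows (1.53%). They were in 7 of the 18 windows that matched the replication genes (38.9%). CCAAT was in 7 of the 15 windows, of 5 genes (Dnmt1, Uhrf1, Suz12, Ezh2 and Tet3), and in 33.8% of all windows, while TTTGAA was in 3 of the 15 and in 16.0% of all. A match describes the letters of the window and is not a measured binding site.

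The balance of paralogues was followed within each library, which does not depend on how libraries are scaled. The log2 ratio of Ezh2 to Ezh1 counts was 4.41, 4.25 and 4.52 in WT PRO and 1.52, 1.42 and 1.99 in WT DIFF. It was 4.73 and 4.10 in PRO and 2.07 and 2.42 in DIFF in the libraries labelled p27KO. Every DIFF library was below every PRO library, and Ezh2 had 17.1 to 26.6 times the counts of Ezh1 in PRO and 2.67 to 5.34 times in DIFF. With stage labels permuted within genotype, the mean difference was -2.46 (exact permutation test, two-sided, p = 0.017, the smallest that the 120 arrangements allow, and 0.033 adjusted over the 2 ratios). In WT alone it was -2.75 with an exact permutation p of 0.1, the smallest possible with 3 libraries against 3. Ezh2 fell and Ezh1 rose without overlap between stages, so these smallest p-values follow from the results of the single genes. They add no separate evidence.

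The Dnmt3a to Dnmt3b ratio moved far less. Its log2 values were 5.58, 5.72 and 5.54 in WT PRO and 6.27, 6.09 and 6.03 in WT DIFF, and 5.61 and 5.91 in PRO and 6.11 and 5.65 in DIFF for libraries labelled p27KO. The groups were apart in WT and overlapped in the libraries labelled p27KO, and the mean difference of 0.32 did not pass the exact permutation test (p = 0.067 before and after adjustment). Without p27KO DIFF replicate 2, which had the high Dnmt3b level, the mean difference was 0.43, and without p27KO DIFF replicate 1 it was 0.20.

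**Figure D3:**
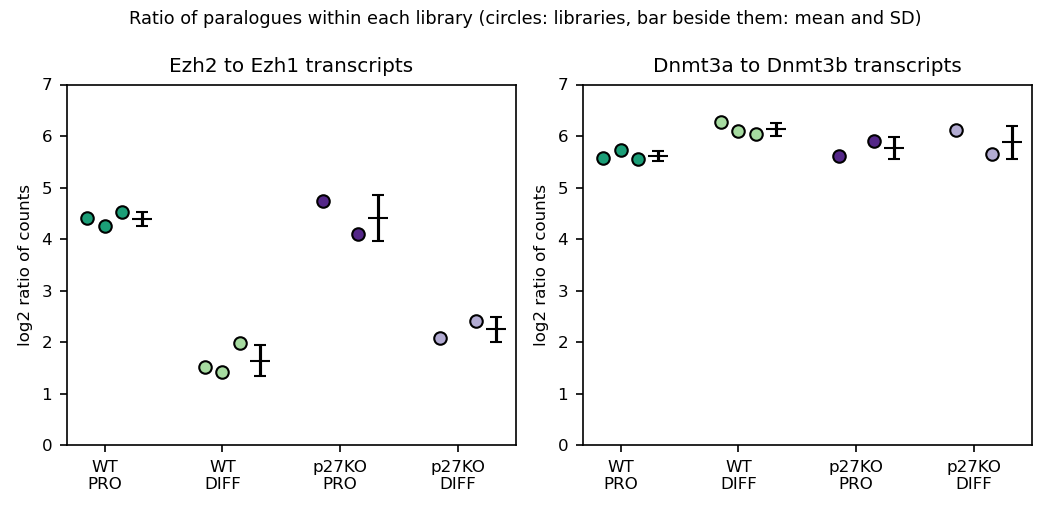
Log2 ratio of counts within each library (y axis) for Ezh2 to Ezh1 (left) and Dnmt3a to Dnmt3b (right) by group (x axis); circles are libraries and the bars beside them give the mean and SD. The Ezh2 to Ezh1 ratio is 4.10 to 4.73 in PRO and 1.42 to 2.42 in DIFF, whereas the Dnmt3a to Dnmt3b ratio lies between 5.54 and 6.27 in all libraries.

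The order of the genes by level changed with stage. Per kb of exon, Dnmt1 (57.8 ± 1.49 CPM per kb, SD, n = 3) and Uhrf1 (52.5 ± 5.15) led in WT PRO and overlapped, followed by Suz12 (23.3 ± 1.80) and Ezh2 (21.9 ± 1.97), which also overlapped. Below them came Tet3 at 11.4, Dnmt3a at 9.54, Tet1 at 3.98, Tet2 at 2.82, Ezh1 at 0.935 and Dnmt3b at 0.630 CPM per kb, none of which overlapped its neighbour. In WT DIFF, Dnmt3a (14.4 ± 1.14 CPM per kb) and Suz12 (12.8 ± 1.42) led and overlapped. Tet2, Ezh2, Dnmt1 and Tet3 followed at 10.5, 10.4, 9.57 and 9.18 CPM per kb, each overlapping the next, then Tet1 at 7.41, Ezh1 at 3.00, Uhrf1 at 1.87 and Dnmt3b at 0.668.

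In libraries labelled p27KO, Uhrf1 (62.9 CPM per kb) and Dnmt1 (60.4) led in PRO, and Suz12 (15.9), Dnmt3a (13.9) and Ezh2 (13.8) led in DIFF. There Uhrf1, at 4.64 CPM per kb, stood above Ezh1 at 2.63, the reverse of their order in WT DIFF. The length was that of all annotated exons joined. With the longest transcript instead, Ezh2 in WT PRO went from 21.9 to 52.5 CPM per kb and Suz12 from 23.3 to 26.3, and the leading genes in DIFF became Ezh2 and Dnmt3a in WT (24.9 and 24.8 CPM per kb, with Suz12 at 14.5) and in libraries labelled p27KO (33.1 and 23.8, with Suz12 at 18.0), so that the order depends on the length assumed.

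**Figure D4:**
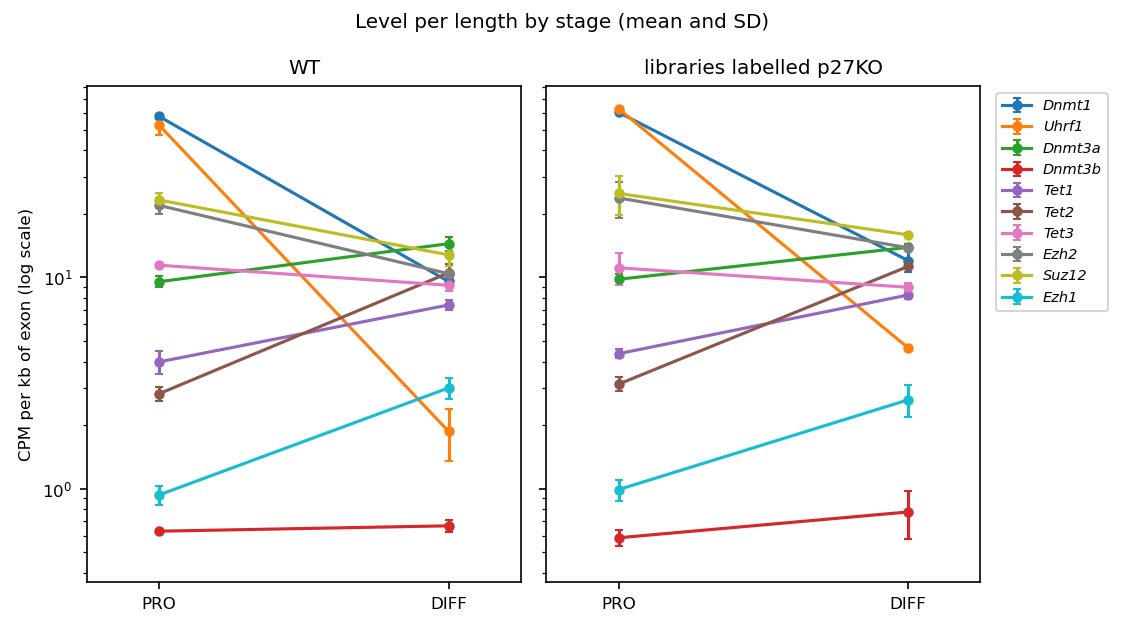
Mean level in CPM per kb of joined exons (y axis, log scale) in PRO and DIFF (x axis) for WT (left) and libraries labelled p27KO (right); error bars give the SD over 3 and 2 libraries. Uhrf1 drops from 52.5 to 1.87 in WT while Tet2 climbs from 2.82 to 10.5, and Dnmt3b is lowest throughout.

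The difference between the genotypes' stage changes was tested for each gene as an interaction. None of the 10 passed an adjusted p under 0.05 in edgeR, where 0.389% of all genes were higher and 0% lower, and 554 genes had an unadjusted p under 0.05. The largest was that of Uhrf1, which fell less in cells labelled p27KO by 1.05 on the log2 scale (95% interval 0.49 to 1.60, unadjusted p = 0.0019, adjusted p = 0.195 in edgeR). DESeq2 gave 1.06 for Uhrf1 with an adjusted p of 0.0040, and it was the single gene of the 10 called by that tool. For Dnmt1 the difference was 0.25 (95% interval -0.02 to 0.52). The 8 other genes lay between -0.28 (Ezh1) and 0.30 (Dnmt3b), and all 9 genes other than Uhrf1 had an edgeR adjusted p of 0.9997. The 95% intervals still allow a difference for these genes, from -0.44 to 0.30 for Tet2 and from -0.10 to 0.66 for Ezh2.

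In neurospheres none of the 10 genes passed the test between genotypes, where 0.0156% of all genes were higher and 0% lower in edgeR. The log2 differences ran from -0.07 (Dnmt3b) to 0.29 (Uhrf1), each with an edgeR adjusted p of 0.9999. Values of Dnmt1, Uhrf1 and Tet2 in libraries labelled p27KO were all above those of WT PRO, and no gene was below, while 6.94% of all genes were higher and 10.9% lower without overlap. Ezh2, Suz12 and Tet3 had widely spaced replicates here. Replicate 1 labelled p27KO was high in Ezh2 (181 CPM) and Suz12 (142 CPM) and low in Tet3 (163 CPM), and replicate 2 was the reverse (137, 105 and 208 CPM). The chi-square per gene between these replicates was 58.0, the highest of the replicate pairs, which started at 13.1 where sampling noise alone would give about 1.

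At 2 + 1 DIV, Uhrf1 was higher in the libraries labelled p27KO and was the single gene of the 10 that passed the test, where 1.91% of all genes were higher and 0.124% lower, 2.04% in all. Its levels of 19.8 and 19.7 CPM stood above the 9.21, 5.39 and 9.25 CPM of WT, a log2 difference of 1.34, or 2.52-fold (standard error 0.18, edgeR adjusted p = 0.0047). The size stayed at 1.33 in a fit of only the groups compared, where the edgeR adjusted p was 0.1004, and was 1.32 without p27KO DIFF replicate 1, with an adjusted p of 0.051. Dnmt1 differed by 0.34 (95% interval 0.15 to 0.53, edgeR adjusted p = 0.087) and Ezh2 by 0.42 (95% interval 0.15 to 0.69, edgeR adjusted p = 0.14), and DESeq2 called both, with adjusted p-values of 0.0032 and 0.032. Suz12 differed by 0.33 (edgeR adjusted p = 0.26), and the 6 other genes lay between -0.17 (Ezh1) and 0.23 (Dnmt3b).

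The libraries labelled p27KO were above all WT libraries at 2 + 1 DIV for Dnmt1, Uhrf1, Tet1, Ezh2 and Suz12 and below them for none, against 17.0% of all genes higher and 20.4% lower. Replication genes were also higher, 9 of 20 at an edgeR adjusted p under 0.05 (Mcm2, Mcm3, Mcm4, Mcm5, Mcm6, Cdc6, Cdc45, Cdt1 and Pola1), with a list median of 0.66 beside -0.0148 over all genes, and 1 of 20 in a fit of only the groups compared. Mki67, a proliferation marker, differed by 1.81 (edgeR adjusted p = 0.0011). The part of these in the difference of Uhrf1 was not tested.

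**Figure D5:**
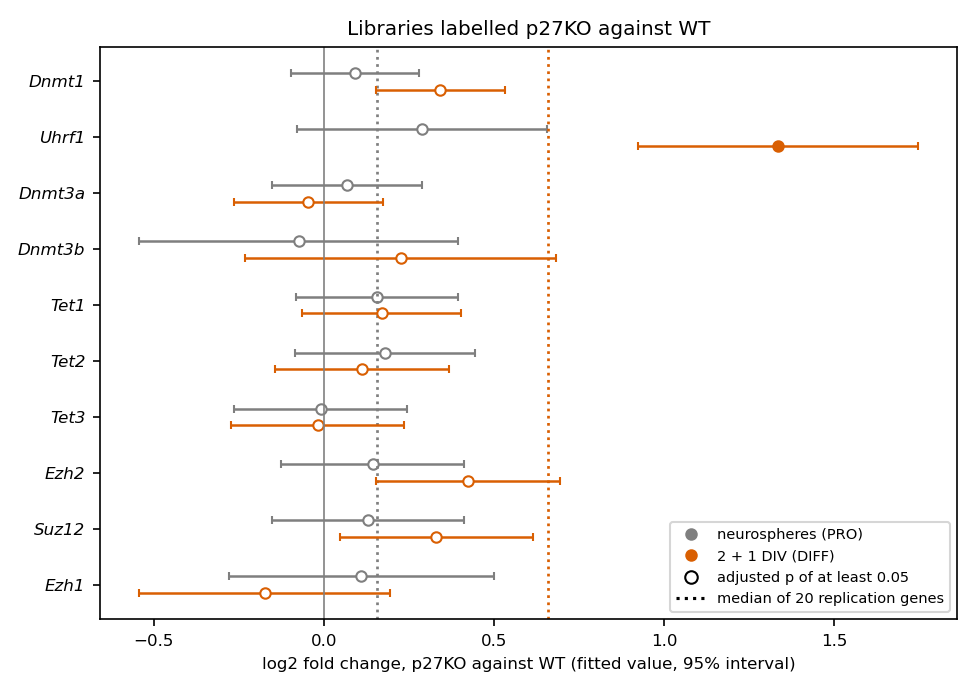
Fitted log2 difference between libraries labelled p27KO and WT (x axis) for each gene (y axis) in PRO and DIFF, with 95% intervals; filled points passed an adjusted p of 0.05 and dotted lines mark the median of 20 replication genes at each stage. Uhrf1 in DIFF, at 1.34, is the single filled point, and the line for DIFF lies at 0.66.

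Across the 10 libraries, the genes whose log2 CPM was most like that of Uhrf1 were Timeless, Mybl2 and Chaf1b (Pearson r = 0.998 each, over 12858 other genes). For Ezh2 these were Suz12 (0.997), Nasp (0.996) and Iws1 (0.995), for Ezh1 they included Dop1b (0.995) and Syt17 (0.993), and for Dnmt3a they were Acsf2 (0.994), Gatad2b (0.992) and Zfp112 (0.989). These correlations describe 10 libraries in which most of the variation is the stage itself. With group means removed, Ezh2 and Suz12 still varied together (r = 0.989, 10 libraries), and Tet3 varied opposite to Suz12 (r = -0.894) and Ezh2 (r = -0.845). These were the strongest such correlations among all pairs of the members. Removing the means leaves fewer independent values than libraries, and the 2 libraries of a p27KO group then mirror each other. The largest deviations were those of p27KO PRO replicate 1 (0.18 for Ezh2, 0.192 for Suz12 and -0.199 for Tet3) and their mirror images in replicate 2.

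Other genes of the same pathways were described from lists. The counts of each list, here and below, are to be read against all genes tested. Of these, 33.5% rose and 33.9% fell in WT, and 27.5% rose and 30.2% fell in cells labelled p27KO. Of 12 partners of maintenance methylation, 10 were tested (Dnmt3l and Ctcfl were below the filter), and 2 rose and 8 fell in WT, with a median log2 fold change of -2.03, while 2 rose and 6 fell in cells labelled p27KO, with a median of -1.76. Hells, a chromatin remodeller needed for DNA methylation at repeats, went from 89.0 ± 10.2 to 5.67 ± 0.957 CPM in WT (log2 fold change -3.98, edgeR adjusted p = 7.0e-08), and Cdca7l, from the family of its activator Cdca7, from 33.9 ± 2.74 to 2.25 ± 0.182 CPM (-3.92, edgeR adjusted p = 8.1e-08). The largest rises were those of Zbtb24 (0.84), a zinc finger gene that acts on Cdca7, and Zfp57 (0.69), which protects imprinted methylation. At 2 + 1 DIV, Hells (1.31), Cdca7l (0.93), Lig1 (0.87) and Cdca7 (0.81) were higher in libraries labelled p27KO (edgeR adjusted p = 0.0030, 0.025, 0.0013 and 0.0019), but none of them in a fit of only the groups compared, and the call of Cdca7l was also lost without WT DIFF replicate 1 or 3 or p27KO DIFF replicate 2 (edgeR adjusted p up to 0.26). Lig1, the ligase of replication, was also the single partner that passed the interaction test (0.75, edgeR adjusted p = 0.046), and with the replicate block none did.

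Of 8 methyl-CpG readers, 5 rose and 1 fell in WT (median 0.40), and 4 rose and 1 fell in cells labelled p27KO (median 0.37). Zbtb4 rose by 1.03 on the log2 scale, from 17.0 ± 1.90 to 34.8 ± 4.77 CPM (edgeR adjusted p = 2.6e-04), and Mbd3 of the NuRD complex fell by 0.96 (edgeR adjusted p = 1.4e-05). Of 10 genes that act after TET oxidation or in the Gadd45 family, 9 were tested (Neil2 was below the filter), and 2 rose and 4 fell in WT, while 0 rose and 3 fell in cells labelled p27KO. The glycosylase genes Ung and Neil3 fell by 4.42 and 2.86 in WT (edgeR adjusted p = 1.0e-07 and 5.2e-06), while Gadd45a rose by 0.62 from 4.05 ± 0.394 CPM (edgeR adjusted p = 0.011). Gadd45b went from 2.25 ± 0.185 to 4.97 ± 3.29 CPM (1.11, edgeR adjusted p = 0.033), but without WT DIFF replicate 1, which was at 8.70 CPM, the log2 fold change was 0.48 with an edgeR adjusted p of 0.13. Neil3 was higher at 2 + 1 DIV in libraries labelled p27KO, by 1.83 (edgeR adjusted p = 0.0057), a call lost in a fit of only the groups compared and without p27KO DIFF replicate 1 (edgeR adjusted p = 0.073 and 0.070). Of 11 genes for methyl donors and alpha-ketoglutarate, the TET cofactor, 3 rose and 5 fell in WT and 2 rose and 4 fell in cells labelled p27KO. D2hgdh rose by 1.40, and Ahcy, which clears the product that inhibits methyltransferases, fell by 1.71 and Idh2 by 1.04 (edgeR adjusted p = 5.8e-05, 1.3e-06 and 2.2e-05).

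Some accessory and remaining core genes of PRC2 rose and others fell, where 33.5% of all genes tested rose and 33.9% fell in WT. Of 10 such genes, 9 were tested (Ezhip was below the filter), and 2 rose and 4 fell in WT, with a median of -0.27, while 2 rose and 3 fell in cells labelled p27KO. Jarid2, a subunit that guides the complex to its sites, went from 56.5 ± 2.07 to 121 ± 6.54 CPM in WT (log2 fold change 1.09, edgeR adjusted p = 7.4e-07), and Phf19 rose by 0.37 (edgeR adjusted p = 0.028), a call lost without WT PRO replicate 2 or without WT DIFF replicate 2 or 3 (edgeR adjusted p up to 0.11). Eed, the third core subunit, fell by 0.97, from 52.3 ± 2.17 to 26.9 ± 1.79 CPM, and the histone-binding Rbbp7 fell by 1.21 (edgeR adjusted p = 7.6e-06 and 1.2e-06). Eed and Rbbp7 each share exons with a gene on the other strand, as do Cdca7l, Lig1, Gadd45a, Cbx7, L3mbtl2, Kdm2b, Kdm6b and Cdc45. Kdm2b also shares exons with Gm44574 on its own strand. The counts of these genes may thus include reads of the other gene.

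Of the 20 genes of the companion complex PRC1, 4 rose and 8 fell in WT (median -0.16), beside 33.5% and 33.9% of all genes. In cells labelled p27KO, 3 rose and 7 fell (median -0.20), beside 27.5% and 30.2%. Pcgf2, which together with Cbx proteins defines canonical PRC1, went from 3.91 ± 0.772 to 20.1 ± 2.45 CPM in WT (2.35, edgeR adjusted p = 1.9e-06), and Cbx7, which reads the mark that PRC2 leaves, rose by 1.55 (edgeR adjusted p = 1.2e-04). L3mbtl2 and Kdm2b, of non-canonical PRC1 forms, fell by 0.86 and 0.83 (edgeR adjusted p = 2.9e-04 and 1.9e-05). Of the 2 demethylases that remove methylation of lysine 27, the X-linked Kdm6a rose by 1.10 in WT (edgeR adjusted p = 4.9e-06), and the log2 difference of Kdm6b was 0.38, which did not pass. In the interaction and at either stage no gene of the PRC2, PRC1, demethylase or reader lists passed the edgeR test between genotypes.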

How the data were processed

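The authors made cDNA from polyA RNA with the Ovation RNA-seq V2 system, aligned reads with STAR to the Ensembl mouse transcriptome (GRCm38) and deposited RSEM's estimated counts per gene, here whole numbers without normalization. Per the submitters' notes, reads were also handled with FastQC, Trimmomatic and cutadapt; versions and strand setting are not given in the sources used here. Sample titles identified all 10 columns. Groups are genotype and stage.

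Counts were fitted with edgeR 4.0.16 (R 4.3.3, limma 3.58.1). Genes under 1 CPM in at least 4 libraries were discarded. The 10 libraries were scaled by TMM (factors 0.969 to 1.02), and a robust quasi-likelihood model held the 4 groups. Tests were two-sided, with Benjamini-Hochberg adjustment over the 12859 genes and a threshold of 0.05. Printed CPM are counts per library total, without TMM. The members had at least 57 counts per library; the lowest, Dnmt3b, is limited by counting error and the others mostly by the spread between 2 or 3 replicates, described as biological in the series' design. Paralogue ratios used 0.5 added to each count. Symbols and positions came from GENCODE annotation of GRCm38, and 48349 identifiers matched. Tables and plots were made in Python 3.11.15 (pandas 2.3.3, matplotlib 3.10.9). The fits were tested on simulated counts.

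The members, lists, reference genes and motifs were chosen with earlier results of these data known. Genes named are the 10 members, the 2 largest rises and falls past the threshold in WT in each other list, list genes past it between genotypes, and the 3 genes most like 4 of the members; some results under this rule are not reported here. Alternatives were DESeq2 1.42.0 and its size factors, 2 other filters, only the groups compared, a replicate block, each library left out, another prior count, WT alone and the longest transcript. Same-numbered WT libraries of both stages deviated together from their group means (r = 0.248, 0.301 and 0.395 across genes, against -0.221 to -0.087 for other numbers). Deviations cancel within a group, so the negative values partly follow from the positive ones. The numbers were used only in the replicate block, and the main fits and permutation tests did not pair libraries. No source says what the numbers mark. Same-numbered libraries labelled p27KO correlated at -0.138.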

Additional observations from a re-analysis of the deposited data

Results flagged for a closer look

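Among the members and the pathway and replication lists, 2 genes were singled out because their stage change differed between the genotypes by the interaction test. For Lig1, the replicative DNA ligase, the fall was smaller in the libraries labelled p27KO by 0.75 on the log2 scale (edgeR adjusted p = 0.046), from 139 ± 7.32 to 9.82 ± 0.900 CPM in WT (SD, n = 3) and from 148 ± 10.8 to 17.7 ± 0.536 CPM in those labelled p27KO (SD, n = 2). For Mcm5, a subunit of the replicative helicase, it was smaller by 1.18 (edgeR adjusted p = 0.023), from 143 ± 10.1 to 7.55 ± 0.985 CPM and from 163 ± 2.22 to 19.6 ± 0.821 CPM. The call of Mcm5 was lost without WT PRO replicate 2 or 3 or any library labelled p27KO, with edgeR adjusted p-values of up to 0.16. That of Lig1 was lost without any single library other than WT DIFF replicate 1 (edgeR adjusted p up to 0.24), with a minimum of 1 CPM in 4 or more libraries (0.056) and with the replicate block (0.1003). Their log2 differences in these fits were 1.11 to 1.21 for Mcm5 and 0.69 to 0.81 for Lig1. None of the 10 members met this criterion.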

How the results depend on the processing

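The stage calls of Dnmt1, Uhrf1, Dnmt3a, Tet1, Tet2, Ezh1, Ezh2 and Suz12 held in both genotypes under all alternatives run, and the cause of the changes below was not tested. Of the members' log2 fold changes under alternatives, 797 kept direction and side of the threshold, 15 lost the call, 3 gained it and 25 changed sign. DESeq2 called 153 genes higher and 4 lower in the interaction (edgeR 50 and 0), with 1 member, 20 and 20 between genotypes in PRO (2 and 0), and 519 and 112 in DIFF (246 and 16), with 3 members. Without a filter the counts were 78 and 1, 7 and 7, and 31 lower in DIFF; with a minimum of 1 CPM in 4 or more libraries they were 4 and 5 in PRO. With only the groups compared they were 1 higher in PRO, and 36 and 3 in DIFF with 0 members. With the replicate block 1 gene was higher in PRO and 38 lower in DIFF, Tet3 in cells labelled p27KO lost its call (-0.33) and no other member's call changed; with the p27KO numbers crossed, an alternative added after seeing the data, 1 was higher in PRO, and 436 and 88 in DIFF.

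Leaving out each library gave 0 to 88 genes higher and 0 to 2 lower in the interaction, 1 to 3 and 0 to 3 in PRO, 94 to 248 and 5 to 34 in DIFF, and 0 to 1 members higher in DIFF. The interaction count was 0 without WT PRO replicate 2 or 3 or any of the 4 libraries labelled p27KO, 13 without WT PRO replicate 1, and 88 and 82 without WT DIFF replicates 1 and 2, and 94 and 121 genes were higher in DIFF without p27KO DIFF replicates 1 and 2. Members that changed sign were close to 0: Dnmt3b in WT (-0.0051 without a filter), and in the interaction Tet3 (0.0072 with DESeq2 size factors, 0.0074 with DESeq2, 0.0055 without a filter). With libraries left out, the interaction ran from -0.0565 to 0.1096 for Tet1, -0.1639 to 0.0326 for Tet2 and -0.1952 to 0.2035 for Tet3. The genotype difference in PRO ran from -0.222 to 0.1768 for Tet3, -0.0483 to 0.3114 for Ezh2, -0.0771 to 0.3076 for Suz12, -0.0149 to 0.1466 for Dnmt3a and -0.032 to 0.2429 for Ezh1. In DIFF it ran from -0.0647 to 0.0406 for Tet3 (0.001 without a filter), -0.1191 to 0.0016 for Dnmt3a and -0.048 to 0.459 for Dnmt3b. The Ezh2 to Ezh1 change was -2.75 in WT alone, where 3 against 3 cannot pass, and that of Dnmt3a to Dnmt3b was 0.51 in WT alone and 0.20 to 0.43 with each library left out. Of 40 levels per length, 36 moved with the longest transcript. Depth limits Dnmt3b most.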
